A study of Mus musculus with 6 samples.

Results

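Cytosolic nucleic acid sensors are the proteins that detect foreign or misplaced RNA and DNA inside the cell, and 8 of their genes were followed in whole mouse cornea. The 8 genes were taken by symbol from a deposited table of 18227 genes, and all 8 were present and passed the filter on low counts, which kept 14983 genes. Of these, 5 belong to RNA sensing (Dhx58, Ifih1, Ddx60, Eif2ak2 and Mavs) and 3 to the sensing of DNA or Z-form nucleic acid (Zbp1, Cgas and Sting1). They were chosen by symbol with the knockout and wild-type counts of this same series in view, in which several of them were already known to be lower in the knockout. Their fold changes between the genotypes are therefore given as a description, and counts of members past a threshold stand only beside the share of all genes that passed it and support nothing.

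The series compared corneas of Muc13-/- C57BL/6 males aged 6 weeks (group Muc13KO, 3 libraries) with corneas of wild-type males of matched age and sex (group WT, 3 libraries). All were kept specific-pathogen-free, and the corneas were taken after death without infection or treatment being named in the labels. Muc13 encodes a transmembrane mucin of epithelial surfaces. The sources used here do not say which part of the gene is deleted or whether each library holds 1 or several animals, so the spread between libraries may be partly technical. KO 1 to 3 and WT 1 to 3 name the individual libraries.

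RNA sensing in the cytosol runs through a small relay. The helicases MDA5 (Ifih1) and RIG-I bind viral or misplaced RNA and pass the signal to MAVS on the mitochondrial surface, from where kinases switch on interferon genes; LGP2 (Dhx58) is a helicase of the same family that lacks the signalling domain and modulates the others. PKR (Eif2ak2) binds long RNA duplexes and shuts down translation by phosphorylating eIF2alpha, and DDX60 is an interferon-induced antiviral helicase. On the DNA side, cGAS (Cgas) makes a cyclic dinucleotide that is bound by STING (Sting1), while ZBP1 recognises Z-form nucleic acid and can engage the kinase RIPK3 in cell death. Most of these sensor genes are themselves induced by interferon, whereas Mavs is known as a constitutive gene.

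Promoter sequences are shown because several of the members moved together across the libraries. RefSeq promoter windows in GRCm38.p6, from 250 bases before to 50 bases after the transcript start, were found for 5 of the 8 members: Ifih1, Ddx60, Eif2ak2, Mavs and Cgas. The letters GAAA, then any 2 bases, then GAAA, the core of the interferon-stimulated response element, were searched on both strands. They occurred in 3 of these 5 windows, those of Ifih1, Ddx60 and Eif2ak2, against 3.44% of the 32851 windows in the RefSeq table. Counted by gene symbol, the share was 3.99% of 27025. Nothing is read from the member count, since the members were chosen with these data in view. Capitals mark the matches in the windows of these 3 genes; the window of the adaptor gene Mavs is set beside them as one without a match.
Ddx60: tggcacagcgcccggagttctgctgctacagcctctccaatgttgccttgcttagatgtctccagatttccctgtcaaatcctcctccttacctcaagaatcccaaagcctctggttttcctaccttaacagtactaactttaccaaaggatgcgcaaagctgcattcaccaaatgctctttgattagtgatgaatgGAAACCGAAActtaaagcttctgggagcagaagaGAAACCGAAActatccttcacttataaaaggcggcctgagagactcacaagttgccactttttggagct
Ifih1: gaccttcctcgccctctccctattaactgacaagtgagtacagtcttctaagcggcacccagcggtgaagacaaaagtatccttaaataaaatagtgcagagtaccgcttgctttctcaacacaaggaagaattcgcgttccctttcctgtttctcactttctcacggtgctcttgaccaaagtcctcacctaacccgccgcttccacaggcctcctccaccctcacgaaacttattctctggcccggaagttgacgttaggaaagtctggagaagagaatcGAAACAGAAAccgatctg
Eif2ak2: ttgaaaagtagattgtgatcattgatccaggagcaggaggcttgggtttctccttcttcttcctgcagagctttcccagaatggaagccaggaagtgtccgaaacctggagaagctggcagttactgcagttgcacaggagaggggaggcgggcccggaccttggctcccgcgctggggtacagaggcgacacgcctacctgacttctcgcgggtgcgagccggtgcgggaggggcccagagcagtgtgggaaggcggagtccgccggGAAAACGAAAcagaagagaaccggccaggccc
Mavs: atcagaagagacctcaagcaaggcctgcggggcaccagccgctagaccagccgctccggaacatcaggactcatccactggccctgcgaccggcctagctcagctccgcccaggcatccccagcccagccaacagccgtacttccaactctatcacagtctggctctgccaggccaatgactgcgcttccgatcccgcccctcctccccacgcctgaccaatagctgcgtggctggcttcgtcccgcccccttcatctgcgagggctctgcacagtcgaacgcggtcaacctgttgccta

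The Ddx60 window (chr8:61927837-61928136, plus strand) holds the same match, GAAACCGAAA, a pair of times, beginning 53 and 19 bases before the start. In Ifih1 (chr2:62646206-62646505, minus strand) the match GAAACAGAAA begins at base 33 of the transcript, and in Eif2ak2 (chr17:78882523-78882822, minus strand) GAAAACGAAA begins at base 19. Each match reads along the gene's own strand. The Mavs window is chr2:131233813-131234112 on the plus strand. The letters TTC, then any 3 bases, then GAA, the core of the gamma-activated sequence, were found in 1 member window, that of Eif2ak2 (178 bases before the start), against 8.30% of all windows. Matches of the GAAA letters were not limited to genes lower in the knockout. Among the pathway genes taken up below, Ddx58, Ifi203, Stat2 and Socs1 had one and were lower in every knockout library than in any wild-type library. Tomm70a, Ripk1 and Eif2s1 had one and overlapped, and Ppp1r15a had one with a higher mean in the knockout. All these matches describe the letters only, and binding was not measured.

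In GENCODE M21 on GRCm38, Dhx58 (ENSMUSG00000017830) spans 100694884 to 100704271 on chromosome 11, Ddx60 (ENSMUSG00000037921) spans 61928087 to 62038244 on chromosome 8 and Eif2ak2 (ENSMUSG00000024079) spans 78852564 to 78882573 on chromosome 17. Chromosome 2 carries Ifih1 (ENSMUSG00000026896, 62595798 to 62646255), Mavs (ENSMUSG00000037523, 131234063 to 131248025) and Zbp1 (ENSMUSG00000027514, 173206612 to 173218923). Cgas (ENSMUSG00000032344) spans 78430526 to 78443237 on chromosome 9, and Sting1 (ENSMUSG00000024349) 35733679 to 35740554 on chromosome 18. All 8 are protein coding, and all 8 had whole counts in every library, so no fractional assignment of reads between genes was seen for them. Exons of Dhx58, Eif2ak2 and Cgas overlap annotated genes on the opposite strand (Dhx58os, Gm26637 with n-R5s29, and Gm8093); the use of strand in counting is not known, so reads of these partners cannot be told apart from the sensor's own.

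Depth was even, at 1.41e+07 to 1.48e+07 expected counts in the Muc13KO libraries and 1.49e+07 to 1.55e+07 in the WT libraries, but the tissue held by each library was not. The count of Muc13 itself was 9, 4 and 2 across KO 1 to 3, against 18, 21 and 9 across WT 1 to 3, so the groups overlapped at the edge of detection. The defining markers of corneal epithelium were present in all 6 libraries, with a summed level of 5804 to 33640 CPM (counts scaled to library size, with TMM factors) in Muc13KO and 26730 to 111100 CPM in WT. The summed retina markers reached 21380 to 37160 CPM in Muc13KO, against 24140 CPM in WT 3 and only 76.5 CPM in WT 1 and 259 CPM in WT 2, so WT 3 is the one wild-type library whose retina content is like that of the knockout libraries. Lens markers spanned 72.1 to 54140 CPM in Muc13KO and 13.3 to 30100 CPM in WT. WT 3 was not like each knockout library in every tissue. Its lens markers were at 30100 CPM, against 2479, 54140 and 72.1 CPM in KO 1 to 3. Its epithelial markers were at 26730 CPM, against 33560, 33640 and 5804 CPM in KO 1 to 3. Skeletal muscle markers spanned 83.1 to 830 CPM in Muc13KO and 281 to 3591 CPM in WT, and iris, ciliary body and melanocyte markers 939 to 6557 CPM in Muc13KO and 17.9 to 2770 CPM in WT. Stroma markers spanned 2078 to 6370 CPM in Muc13KO and 820 to 3440 CPM in WT, but 5439 of the 6370 CPM in KO 3 were Ptgds alone. Without that gene the other 7 spanned 932 to 2088 CPM in Muc13KO, lowest in KO 3, and 817 to 2061 CPM in WT, and Kera, the keratocyte proteoglycan gene, was at 6.90 CPM in KO 3. The corneal endothelium markers spanned 1001 to 1280 CPM in Muc13KO and 894 to 1319 CPM in WT. These differences in tissue content run alongside every fold change below, and their part in the results was not tested. The fold changes of the 8 members and of the pathway genes named below are therefore also given with WT 3 as the only wild-type library, which leaves no spread between wild-type samples; those of flanking genes are not. In bulk tissue, fewer cells of a type and less RNA per cell cannot be told apart.

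Zbp1 and the inducible RNA sensors were lower in every knockout cornea than in any wild-type cornea, while the adaptor genes Mavs and Sting1 and the DNA sensor gene Cgas overlapped between the genotypes. In CPM, 5 of the 8 members (Dhx58, Ifih1, Ddx60, Eif2ak2 and Zbp1) had all 3 knockout libraries below all 3 wild-type libraries; of the 14983 genes tested, 5.51% did so. No member had all knockout libraries above all wild-type ones, as 4.71% of genes did. A log2 fold change of -1 or below was seen for 6 of the 8, against 8.88% of all genes, and one below 0 for 7 of the 8, against 48.5%. Since the members were chosen with this contrast in view, nothing is read from these shares. The same 5 genes lay below WT 3 alone in every knockout library, against 12.7% of all genes tested. For these 5 this follows from the groups not overlapping, so it is no separate check. The median log2 fold change of the 8 members was -1.57, beside 0.02 for all genes tested, and with WT 3 as the only wild-type library it was -0.84, beside 0.02. The edgeR quasi-likelihood test called 0 of the 14983 genes at a Benjamini-Hochberg adjusted p under 0.05 (0.0%), so 0 of the 8 members passed; 656 genes (4.38%) had an unadjusted p under 0.05, 548 of them lower in the knockout (3.66%), with 5 members among these. Without WT 3, edgeR called 5166 of 15166 genes (34.1%), 1961 of them lower (12.9%), with 6 members among these. The DESeq2 Wald test called 69 genes (0.48%), 60 of them lower in the knockout (0.417%) and 5 of these being members, the 5 named above.

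**Figure D1:**
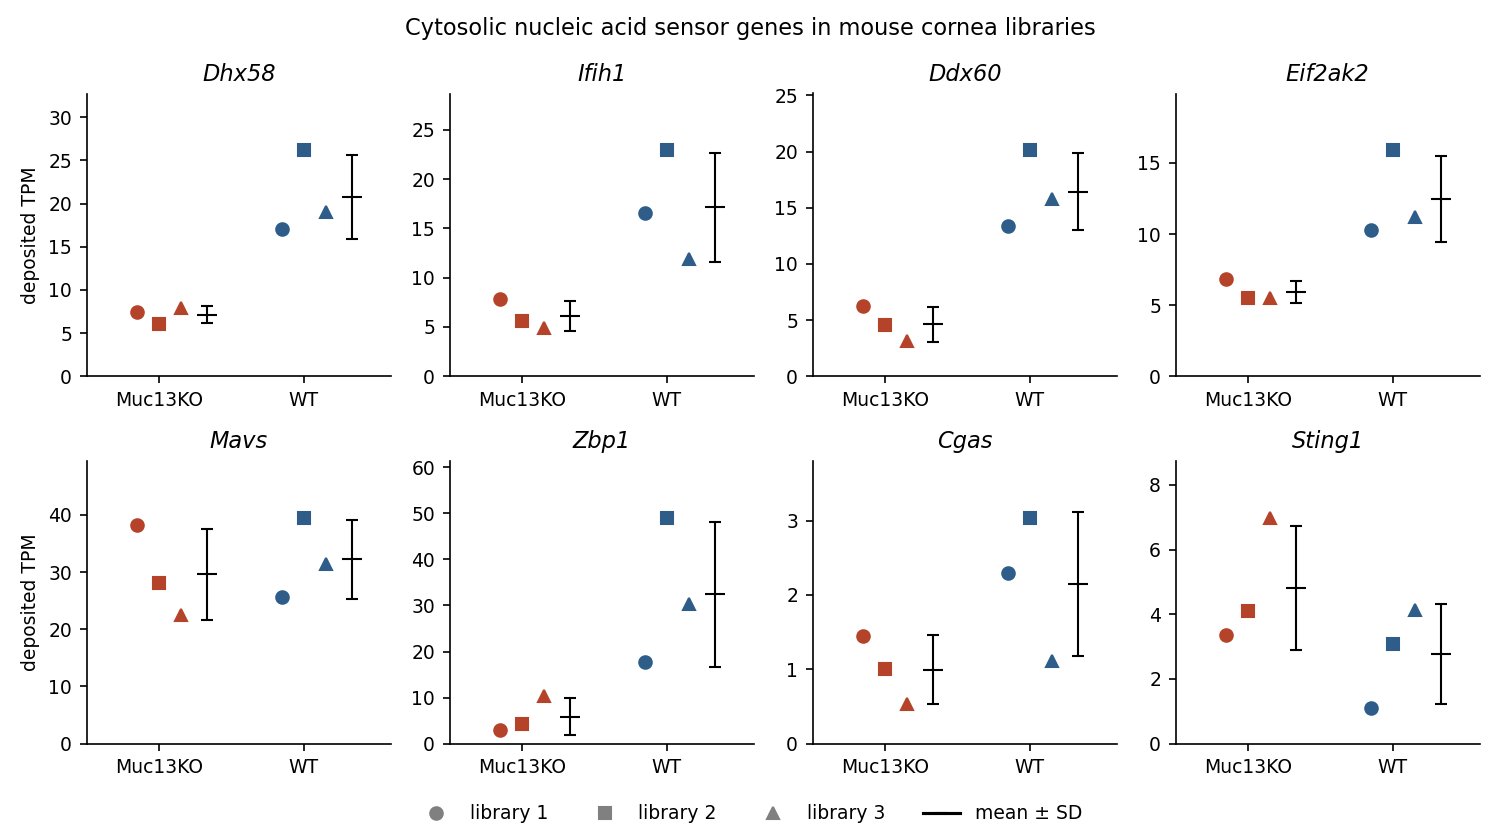
TPM of the 8 sensor genes in each library, on a linear scale that starts at 0, with Muc13KO left and WT right; symbols mark libraries 1 to 3 and the black bar the mean ± SD (n = 3 each). Dhx58, Ifih1, Ddx60, Eif2ak2 and Zbp1 show no overlap between the groups, whereas Mavs, Cgas and Sting1 do.

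Among the RNA-binding sensors, Dhx58, which encodes LGP2, was low and even across the knockout libraries. It stood at 7.47, 6.07 and 7.88 TPM (the authors' length-corrected transcript level) in KO 1 to 3, against 17.0, 26.2 and 19.0 TPM in WT 1 to 3. The lowest wild-type library was 2.16 times the highest knockout library. On the CPM scale Dhx58 averaged 10.5 ± 0.827 in Muc13KO and 36.9 ± 9.54 in WT (SD, n = 3 each), a log2 fold change of -1.81 with an SE of 0.250. Against WT 3 alone it was -1.33, and KO 1 to 3 differed from WT 3 by -1.41, -1.36 and -1.20 in log2 CPM.

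Ifih1, which encodes the long-RNA sensor MDA5, was at 7.83, 5.64 and 4.88 TPM in KO 1 to 3 and at 16.5, 22.9 and 11.9 TPM in WT 1 to 3. The groups did not overlap, but WT 3 stood much nearer to the knockout libraries than WT 1 and WT 2 did. Its CPM averaged 17.9 ± 2.72 in Muc13KO and 59.5 ± 23.5 in WT (SD, n = 3 each), with a log2 fold change of -1.73 (SE 0.363) that was -0.86 against WT 3 alone.

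Ddx60 had the largest fold change of the RNA sensors. This helicase gene was at 6.22, 4.58 and 3.09 TPM in KO 1 to 3 and at 13.4, 20.1 and 15.8 TPM in WT 1 to 3. KO 3 was the lowest library and WT 2 the highest, and the lowest wild-type value was 2.15 times the highest knockout value. In CPM the means were 19.0 ± 5.46 in Muc13KO and 80.75 ± 20.1 in WT (SD, n = 3 each), a log2 fold change of -2.09 (SE 0.318). It was -1.62 against WT 3 alone, with KO 1 to 3 at -1.33, -1.46 and -2.18 in log2 CPM relative to WT 3.

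Eif2ak2, the gene of the translation-blocking kinase PKR, differed less. It was at 6.83, 5.49 and 5.51 TPM in KO 1 to 3, against 10.3, 15.9 and 11.2 TPM in WT 1 to 3. The knockout libraries were nearly level with each other (coefficient of variation 12.9% in TPM, the lowest of the members in that group), and none reached the wild-type range. CPM averaged 16.7 ± 1.28 in Muc13KO and 42.0 ± 11.5 in WT (SD, n = 3 each), giving a log2 fold change of -1.33 (SE 0.251) and of -0.82 against WT 3 alone.

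Mavs, the mitochondrial adaptor on which the RNA helicases converge, overlapped between the genotypes. Its level was 38.2, 28.1 and 22.6 TPM in KO 1 to 3 and 25.7, 39.6 and 31.5 TPM in WT 1 to 3. On this scale KO 1 exceeded both WT 1 and WT 3, and KO 3 was the lowest of the 6. In CPM, KO 1 (62.99) exceeded WT 3 (54.11) but not WT 1 (72.58). The CPM means were 53.9 ± 12.2 in Muc13KO and 70.4 ± 15.3 in WT (SD, n = 3 each), a log2 fold change of -0.38 (SE 0.258). Against WT 3 alone the value was -0.0056.

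Mavs was used as a within-library yardstick that does not depend on how the libraries are scaled, and it was chosen because it overlapped in this same contrast. Overlap does not show that Mavs is unchanged. Its own variation, from 22.6 TPM in KO 3 to 39.6 TPM in WT 2, enters every ratio. Ddx60 stood at 0.163, 0.163 and 0.137 of the Mavs TPM in KO 1 to 3 and at 0.520, 0.509 and 0.500 in WT 1 to 3, so the ratio was nearly the same in all 3 wild-type libraries. Dhx58 was at 0.195, 0.216 and 0.349 of Mavs in the knockout and at 0.662, 0.663 and 0.604 in the wild type. Ifih1 was at 0.205, 0.201 and 0.216 in KO 1 to 3, with 0.643, 0.580 and 0.379 in WT 1 to 3, so WT 3 stood below the other wild-type libraries and the even group was here the knockout. For Eif2ak2 the mean ratios were 0.206 ± 0.0341 in Muc13KO and 0.385 ± 0.0265 in WT (SD, n = 3 each). The groups were apart for these 4 genes and for Zbp1, and overlapped for Cgas and Sting1. Mavs made up 36.4% to 51.5% of the summed TPM of the 8 members in the knockout libraries and 21.98% to 25.2% in the wild-type libraries.

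**Figure D2:**
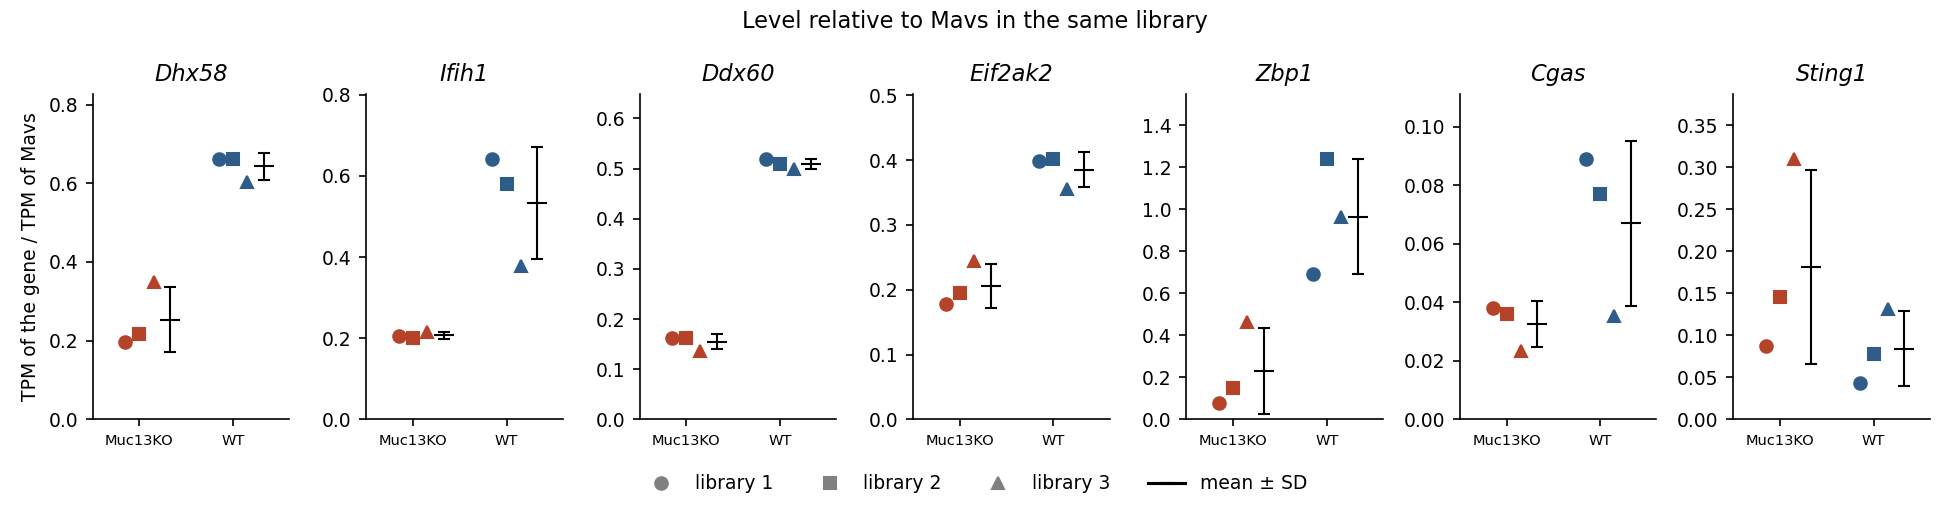
TPM of each sensor gene divided by the TPM of Mavs in the same library, with Muc13KO left and WT right, symbols for libraries 1 to 3 and the mean ± SD in black (n = 3 each). The Ddx60 ratios lie between 0.137 and 0.163 in Muc13KO and between 0.500 and 0.520 in WT.

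Zbp1, the sensor of Z-form nucleic acid, had the largest fold change of the 8 members and also the widest spread within the knockout group. Its library counts were 29, 41 and 107 across KO 1 to 3, against 225, 524 and 295 across WT 1 to 3. In TPM this was 2.90, 4.22 and 10.45 in the knockout, against 17.8, 49.1 and 30.4 in the wild type. KO 3 stood apart from KO 1 and KO 2, with a 95% interval of 5.41 to 7.97 CPM against 1.29 to 2.76 CPM in KO 1 (exact Poisson, counting error only). It was still below the lowest wild-type library, WT 1, whose interval was 15.3 to 19.95 CPM. The CPM means were 3.76 ± 2.49 in Muc13KO and 24.4 ± 11.1 in WT (SD, n = 3 each). The log2 fold change of -2.69 (SE 0.606) became -3.37 without KO 3 and -2.25 without WT 2, and was -2.27 against WT 3 alone.

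Because ZBP1 is also made by immune cells, markers of such cells are given beside it; their part in the Zbp1 level was not tested. The sum of 12 macrophage and dendritic cell markers was 268, 188 and 219 CPM across KO 1 to 3, against 138, 258 and 129 CPM across WT 1 to 3, with 4 of the 12 at a log2 fold change below 0. Most of it was Lyz2 and Itgam, which went opposite ways, at log2 fold changes of 1.68 and -0.80. Of the 11 T and NK cell markers, 10 were in the table and summed to 2.23 to 4.32 CPM in Muc13KO and 0.856 to 2.20 CPM in WT, with Cd3e, Cd3d, Cd3g, Cd8a, Cd8b1, Nkg7, Ncr1 and Klrb1c each at 0 in some library. The 5 B cell markers in the table summed to 1.36 to 1.53 CPM in Muc13KO and 1.17 to 1.49 CPM in WT, with Ms4a1 and Pax5 among those at 0 in some library. The 7 neutrophil markers summed to 7.46 to 10.5 CPM in Muc13KO and 1.48 to 9.23 CPM in WT, with Ly6g and Retnlg at 0 in some library. Of this sum, Mmp9 alone was 7.76, 5.54 and 3.58 CPM in KO 1 to 3 and 0.156, 0.497 and 6.55 CPM in WT 1 to 3. Siglech, the defining marker of plasmacytoid dendritic cells, was at 0.995, 0.878 and 1.29 CPM in KO 1 to 3 and at 0, 0.0711 and 1.37 CPM in WT 1 to 3. The summed level of that list of 4, 122 to 189 CPM in Muc13KO and 26.99 to 181 CPM in WT, was mostly Pacsin1, which neurons also express, in KO 1 to 3 and WT 3, and mostly the interferon-induced gene Bst2 in WT 1 and WT 2.

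Cgas, which encodes the DNA sensor cGAS, had the lowest mean TPM of the members in both groups. Its library counts were 49, 45 and 22 across KO 1 to 3, against 119, 124 and 38 across WT 1 to 3. In TPM it was at 1.45, 1.01 and 0.53 in the knockout, against 2.29, 3.04 and 1.11 in the wild type. WT 3 lay inside the knockout range, with a 95% interval of 1.68 to 3.25 CPM against 2.40 to 4.30 CPM in KO 1 (exact Poisson, counting error only). The means of 2.55 ± 1.04 CPM in Muc13KO and 6.81 ± 3.85 CPM in WT (SD, n = 3 each) gave a log2 fold change of -1.42 (SE 0.665). With WT 3 as the only wild-type library this was 0.10, so the lower knockout mean rested on WT 1 and WT 2. Those were the libraries lowest in retina markers and highest in epithelial markers; the part of tissue content in this was not tested.

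Sting1, the adaptor and receptor downstream of cGAS, was the one member with a mean above the wild type, and the groups overlapped. Its library counts were 63, 89 and 155 across KO 1 to 3, against 25, 71 and 86 across WT 1 to 3. In TPM it was at 3.35, 4.09 and 6.99 in the knockout, against 1.11, 3.08 and 4.14 in the wild type. KO 3 was the highest library and WT 1 the lowest, and the remaining 4 were close to each other. The CPM means were 6.58 ± 2.73 in Muc13KO and 4.12 ± 1.89 in WT (SD, n = 3 each), a log2 fold change of 0.67 (SE 0.548) that was 0.31 without KO 3, 0.34 without WT 1 and 0.30 against WT 3 alone. The iris, ciliary body and melanocyte markers were likewise highest in KO 3 (6557 CPM) and lowest in WT 1 (17.9 CPM), and their part in the Sting1 level was not tested. The stroma markers other than Ptgds were low in both of these libraries, at 932 CPM in KO 3 and 817 CPM in WT 1.

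The balance between Sting1 and Cgas therefore differed widely between libraries. Sting1 TPM was 2.31, 4.05 and 13.2 times Cgas TPM in KO 1 to 3 and 0.485, 1.01 and 3.73 times in WT 1 to 3. WT 3 again lay within the knockout range, so the groups overlapped.

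**Figure D3:**
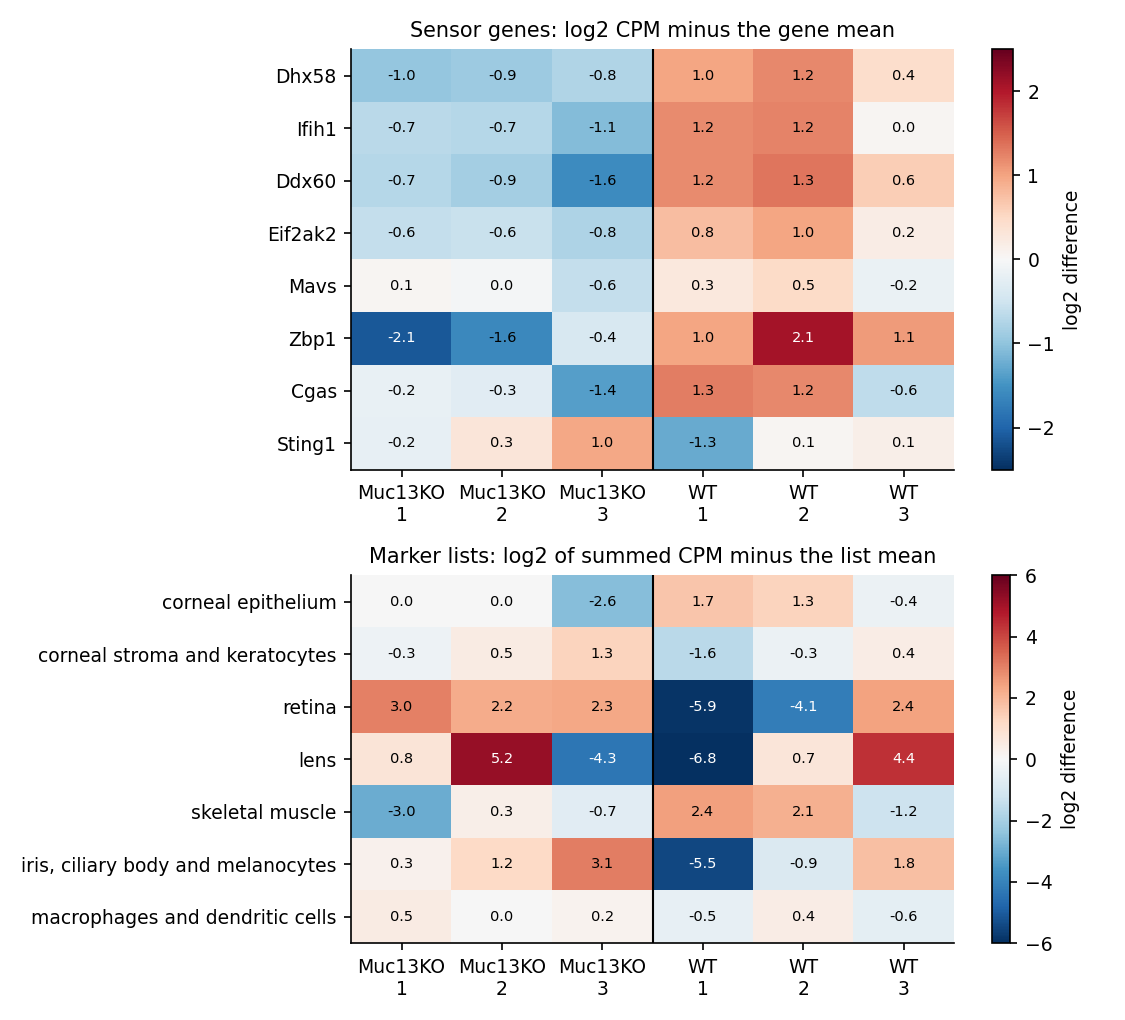
Upper panel, log2 CPM of each sensor gene minus its mean over the 6 libraries; lower panel, log2 of the summed CPM of marker lists minus the list mean, with Muc13KO libraries left of the line and WT libraries right. KO 3 has the lowest Ddx60 (-1.56) and Cgas (-1.38) but the highest Sting1 (0.96), and WT 3, which is like the knockout libraries in retina markers, lies above all 3 of them for Dhx58 (0.44), Ifih1 (0.04), Ddx60 (0.61), Eif2ak2 (0.18) and Zbp1 (1.06) and within their range for Mavs (-0.16), Cgas (-0.63) and Sting1 (0.14). The stroma row of KO 3 is mostly Ptgds.

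The order of the levels, in TPM, was not the same in both genotypes. In the knockout, Mavs stood first at a mean of 29.6 TPM, and its lowest library (22.6 TPM) was above the highest library of the next gene, Dhx58 (7.88 TPM). Dhx58, Ifih1, Eif2ak2, Zbp1, Sting1 and Ddx60 followed with means of 7.14, 6.12, 5.94, 5.86, 4.81 and 4.63 TPM, and each neighbouring pair among them overlapped. Cgas came last at 0.997 TPM, below every library of Ddx60. In the wild type, Zbp1 (32.4 TPM) and Mavs (32.3 TPM) led and overlapped. Zbp1 exceeded Mavs in only 1 of the 3 libraries, WT 2 (49.1 against 39.6 TPM). Dhx58 (20.75), Ifih1 (17.1), Ddx60 (16.4) and Eif2ak2 (12.45) followed, each neighbour overlapping the next. Sting1 (2.78 TPM) was below every library of Eif2ak2 and overlapped Cgas (2.15 TPM). Dhx58, Ddx60 and Mavs each exceeded the next gene down in all 3 wild-type libraries although their ranges overlapped across libraries.

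Across the 6 libraries the members fell into unlike profiles. The likeness of 2 genes was measured as the root mean square difference of their log2 CPM after centring each gene on its own mean, over 28 pairs of members. The closest pair was Ifih1 and Eif2ak2 (0.25), followed by Dhx58 with Eif2ak2 and with Ifih1 (0.27 each) and Ifih1 with Ddx60 (0.31). Zbp1 was 0.71 or more from each of the others, and the most unlike pair was Zbp1 and Sting1 (1.79). Knockout libraries 1 to 3 did not rank alike for these genes: KO 3 was the highest of the 3 for Zbp1, Dhx58 and Sting1 and the lowest for Ifih1, Ddx60, Eif2ak2, Mavs and Cgas in CPM.

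The genes whose profile over the 6 libraries was most like each member were found among 12327 genes of at least 5 CPM. Closest to Dhx58 were Slfn2, Irf9 and Parp14 (0.14 to 0.15); to Ifih1, H2-T23, Parp9 and Phf11d (0.10 to 0.13); to Ddx60, Phf11d, Gbp4 and Oasl2 (0.20 to 0.24); and to Eif2ak2, Parp12, Trim21 and Trim34a (0.10 to 0.13). For Zbp1 they were Oas2, Rtp4 and Tgtp2 (0.21 to 0.33). Those closest to Mavs were Map3k3, Jarid2 and Dnmt1 (0.05 to 0.06), to Cgas Serpinb1a, Dgka and Mapkapk3 (0.06 to 0.10), and to Sting1 Mical1, Evc and Sh2d3c (0.08 to 0.15).

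**Figure D4:**
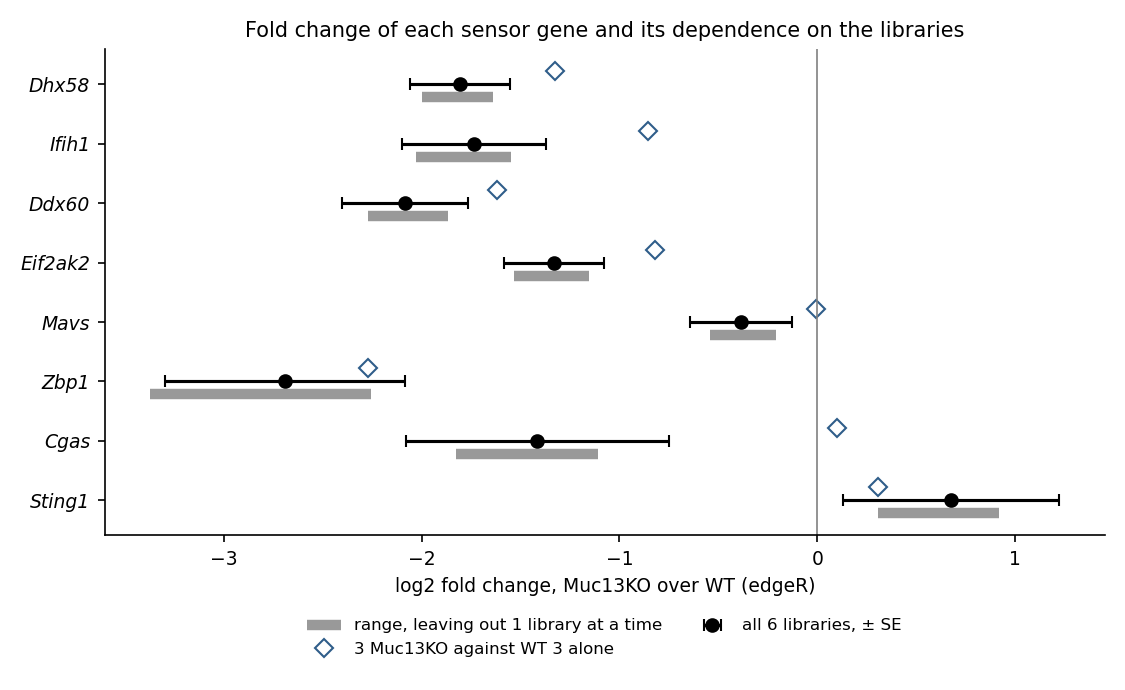
Log2 fold change of each sensor gene, Muc13KO over WT, from the fit of all 6 libraries (black, ± SE), its range when 1 library is left out at a time (grey) and its value with WT 3 as the only wild-type library (open diamonds). Dhx58, Ifih1, Ddx60, Eif2ak2 and Zbp1 stay below 0 in all of these. So does Mavs, whose groups overlap and which is at -0.0056 against WT 3 alone, while Cgas is at 0.10 there.

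The genes beside the members on the chromosome were looked at next. Of the 16 nearest tested genes, 1 on each side of each member, 15 overlapped between the genotypes. The other, Gca beside Ifih1, was higher in every knockout library (log2 fold change 0.67, SE 0.275). Over all genes tested, 4.71% were higher and 5.51% lower without overlap. The largest fold changes were those of Ddx43 beside Cgas (-1.64, SE 0.968), Fap beside Ifih1 (1.44, SE 0.642) and Spock3 beside Ddx60 (1.40, SE 1.72). Kat2a, which lies 475 bases from Dhx58, was at -0.56 (SE 0.219), Pmepa1 beside Zbp1 was at 0.86 (SE 0.709) and Gpatch11 beside Eif2ak2 was at 0.29 (SE 0.215).

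Other genes of nucleic acid sensing were taken from 7 lists of 109 symbols, of which 97 were in the table and 94 were tested. With edgeR 0 of the 94 passed in either direction, and with DESeq2 5 were called, all lower in the knockout, beside 0.48% of all genes called and 0.417% called lower. Nothing is read from this count, since the lists were chosen with these data known. The 5 were spread as 1 among the RNA sensing genes, 1 among the kinases and transcription factors and 3 among the interferon signalling genes. The 11 interferon genes of the lists were absent from the table under these symbols, so the level of interferon itself could not be compared.

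Of 21 other RNA sensing genes, 17 had a log2 fold change below 0 and 4 above, with a median of -0.35 that was -0.07 against WT 3 alone. Ddx58, which encodes RIG-I, the founding helicase of the family, was at 14.5, 12.2 and 11.2 TPM in KO 1 to 3 and at 27.7, 35.7 and 21.6 TPM in WT 1 to 3. Its groups did not overlap (log2 fold change -1.46, SE 0.324; -0.68 against WT 3 alone). The zinc-finger antiviral protein gene Zc3hav1 was at 33.1 ± 7.54 CPM in Muc13KO and 82.73 ± 33.04 CPM in WT (SD, n = 3 each; log2 fold change -1.32, SE 0.384), and its value against WT 3 alone was -0.43. Tlr3, the endosomal receptor for RNA duplexes, overlapped between the groups, at -0.96 (SE 0.359) with all libraries and -0.07 against WT 3 alone.

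Among 19 other DNA sensing genes, 12 were below 0 and 7 above, with a median of -0.29, and of -0.0081 against WT 3 alone. Ifi35, an interferon-induced protein, had its 3 knockout libraries at 26.7, 27.2 and 38.0 CPM, below the 101, 92.4 and 48.0 CPM of the wild type (log2 fold change -1.39, SE 0.335; -0.64 against WT 3 alone). Samhd1, a nucleotide hydrolase that limits DNA synthesis, was at 58.9 ± 2.11 CPM in Muc13KO and 91.4 ± 21.8 CPM in WT (SD, n = 3 each; log2 fold change -0.63, SE 0.206; -0.35 against WT 3 alone). Ifi203, a gene of the interferon-inducible Ifi200 family, was at -1.43 (SE 0.507), also without overlap, and at -0.86 against WT 3 alone. The cytosolic exonuclease Trex1, which clears DNA, overlapped, at -0.30 (SE 0.275) and at -0.27 against WT 3 alone. Unlike the members, Ifi203, Samhd1 and Trex1 had counts that were not whole in some library, so fractional assignment of reads enters their values.

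Partners of ZBP1 and other cell death genes had a median of -1.16 over 9 genes, 8 of them below 0, and a median of 0.02 against WT 3 alone. The necroptosis kinase gene Ripk3 was at 2.65, 3.31 and 2.40 CPM in KO 1 to 3 and at 16.3, 12.2 and 3.87 CPM in WT 1 to 3, and its target Mlkl at 0.862, 1.42 and 1.17 CPM against 5.37, 6.11 and 2.06 CPM. Neither gene overlapped between the groups, but WT 3 stood next to the knockout values for both. The log2 fold change was -1.95 (SE 0.586) for Ripk3 and -1.96 (SE 0.551) for Mlkl with all libraries, and -0.47 for Ripk3 and -0.83 for Mlkl against WT 3 alone. Casp8, which restrains necroptosis, overlapped (-1.13, SE 0.450), with 0.05 against WT 3 alone.

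Downstream of the adaptors, 14 of 19 kinases, adaptors and transcription factors were below 0 (median -0.28; 0.02 against WT 3 alone). The inducible factor Irf7 was at 39.9, 38.5 and 42.1 CPM in KO 1 to 3 and at 90.2, 154 and 115 CPM in WT 1 to 3, a log2 fold change of -1.58 (SE 0.233) that was -1.52 against WT 3 alone. The constitutive factor Irf3 overlapped (-0.28, SE 0.187; 0.05 against WT 3 alone). Tbk1, the kinase that phosphorylates it, was at 28.9 ± 2.66 CPM in Muc13KO and 35.7 ± 4.45 CPM in WT (SD, n = 3 each; -0.30, SE 0.169; -0.265 against WT 3 alone). Its groups were barely apart, with KO 1 at 31.69 CPM and WT 1 at 31.74 CPM. That margin is within counting error and depends on the TMM factors (1.073 for KO 1 and 0.831 for WT 1). The death-domain adaptor Tradd was at -1.05 (SE 0.374) with all libraries but at -0.19 against WT 3 alone. Nfkb1, a subunit of NF-kB, was at -0.54 (SE 0.247) and overlapped, with -0.012 against WT 3 alone.

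Interferon receptor and signalling genes had a median of -0.80 over 13 genes, 11 below 0, and of -0.05 against WT 3 alone. Irf9, the DNA-binding subunit of the complex that recognises the interferon-stimulated response element, was at 31.8, 34.7 and 47.8 CPM in KO 1 to 3 and at 122, 137 and 83.6 CPM in WT 1 to 3. Its groups did not overlap (log2 fold change -1.58, SE 0.269; -1.13 against WT 3 alone). The feedback protease Usp18 was at -1.86 (SE 0.307), also without overlap, and at -1.52 against WT 3 alone. The receptor gene Ifnar1 overlapped (0.16, SE 0.181; -0.015 against WT 3 alone).

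The last list holds the other eIF2alpha kinases, the factor they act on and its phosphatase, beside which Eif2ak2 can be read. Of its 13 genes 8 were below 0 and 5 above, with a median of -0.14, and of 0.03 against WT 3 alone. Eif2ak4, the amino acid sensing kinase, was at -0.36 (SE 0.159) and at -0.16 against WT 3 alone. Its groups were narrowly apart, with KO 3 at 30.63 CPM and WT 3 at 33.04 CPM, a margin within counting error. The separation also depends on the TMM factors (1.12 for KO 3 and 0.831 for WT 1). The initiation factor subunit Eif2b5 was at -0.45 (SE 0.223) with its groups overlapping, and at 0.010 against WT 3 alone. Ppp1r15a, whose product reverses eIF2alpha phosphorylation, lay the other way, at 43.5 ± 8.96 CPM in Muc13KO and 29.2 ± 4.68 CPM in WT (SD, n = 3 each). Its log2 fold change was 0.58 (SE 0.227), and 0.52 against WT 3 alone. The groups were barely apart, with KO 1 at 33.42 CPM and WT 2 at 33.04 CPM, a margin within counting error.

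**Figure D5:**
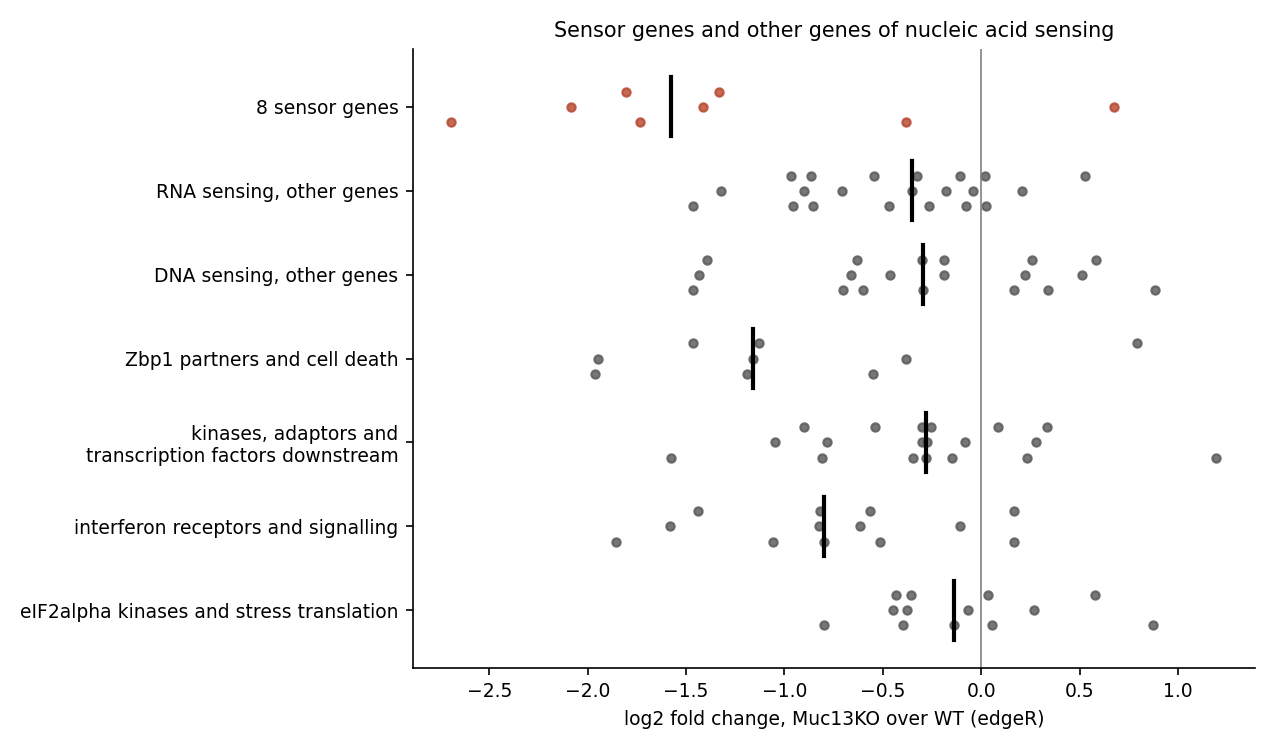
Log2 fold changes, Muc13KO over WT, of the 8 sensor genes and of the tested genes of 6 lists of the pathway, 1 point a gene, with the median of each row as a vertical bar. The medians are -1.57 for the sensor genes, -1.16 for ZBP1 partners, -0.80 for interferon signalling and between -0.35 and -0.14 for the other 4 lists.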

How the data were processed

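Whole-cornea RNA of 3 Muc13KO and 3 WT samples was turned into mRNA-seq libraries, according to the labels. The submitters' processing notes name the build GRCm38 (mm10); aligner, counter, annotation and strand setting were not given in the sources used here. Per library, the authors deposited expected counts without normalization, a signal of counts scaled by a size factor, TPM and FPKM, per the file headers; 8 average columns were not used.

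Expected counts were rounded and tested in R 4.3.3 with edgeR 4.0.16 (quasi-likelihood test, robust, genotype only, TMM scaling, filterByExpr, Benjamini-Hochberg adjusted p under 0.05). The code was run on simulated counts drawn with less spread between libraries than these data have (root of the common dispersion 0.585). That run therefore does not show how the test performs at the spread of these data. CPM use TMM-scaled library sizes, and log2 CPM a prior count of 2. Each SE was taken as |log2 fold change| over the root of the F statistic. A count of 3 corresponds to 0.185 to 0.233 CPM. Intervals of 95% cover counting error only. Alternatives used DESeq2 1.42.0 and limma 3.58.1 (voom). Of the gene identifiers, 18181 of 18227 matched GENCODE M21.

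Members and lists were chosen with earlier results of these data known. Named are the members, Muc13, per pathway list the 3 genes with the smallest p at 1 CPM or more, per member the 3 genes of most similar profile at 5 CPM or more, and abundant markers. Markers at 0, Kera, the stroma sum without Ptgds, Trex1, Tbk1, Irf3, Ifnar1 and Siglech fall outside this rule and were chosen after their values were seen. So were the flanking genes Gca, Ddx43, Fap, Spock3, Kat2a, Pmepa1 and Gpatch11. Pathway genes named only for a promoter match also fall outside the rule. Replicate numbers did not pair the samples by the labels. Some genes that the rule names are not reported here.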

Additional observations from a re-analysis of the deposited data

How the results depend on the processing

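The count of genes called was 0 with edgeR under both other scalings, both other filters, limma-voom and the replicate block, and 0 with WT 3 as the only wild-type library. It was 69 with the DESeq2 Wald test, with 5 members and 5 pathway genes called. Leaving out 1 library gave 0 to 5166 genes, 0 to 6 members and 0 to 33 pathway genes; each highest value came without WT 3, where 34.1% of all genes were called, which leaves WT 1 and WT 2, both low in retina markers. The cause was not tested. With the replicate block, 0 members and 0 pathway genes were called; deviations of same-numbered samples correlated at 0.0905, 0.363 and 0.190, so the numbers were not taken as pairs. Over 16 alternatives each, fold changes of the 8 members kept their sign in all but 1 of 128 values, Cgas at 0.10 against WT 3 alone, and 118 moved by less than the spread between replicates. Scaling by library size alone puts the median of all genes at 0.19. The 5 members whose groups did not overlap numbered 5 also in deposited TPM, in the authors' scaled counts and by library size alone, settings chosen after seeing the data. Against WT 3 alone, also chosen after seeing the data, the number was 5. It could not be lower, since a gene below all wild-type libraries is below WT 3, so nothing is read from it. A stricter and a looser motif each gave 3 promoters. Low counts limit Zbp1, Cgas and Sting1.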
